A study of Drosophila melanogaster with 6 samples.

Results

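The glycolysis enzymes described here are 10 genes, Hex-A, Pgi, Pfk, Tpi, Gapdh1, Gapdh2, Pgk, Eno, PyK and Ldh, chosen by symbol among the 17807 genes of the count table. Glycolysis splits glucose into pyruvate. A first set of steps spends ATP to phosphorylate the sugar, a second set pays ATP and NADH back, and lactate dehydrogenase turns pyruvate into lactate and restores NAD+. In the insect head the pathway is best known in glia, which break sugar down and pass the products to neurons.

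RNA was measured in heads of adult male *Drosophila*, about a week old at the sleep assay that preceded collection, in 3 pum kd and 3 control libraries, each made from 10 pooled heads. The pum kd flies carried UAS-pumRNAi (TRiP.HMS01564 at attP2), a hairpin against the translational repressor pumilio, and the control flies carried UAS-mCherryRNAi (VALIUM20 at attP2), a hairpin against a protein that flies lack. Both genotypes also carried esg-Gal4 and UAS-2xYFP over a plain chromosome, with Su(H)GBE-Gal80 and tub-Gal80ts. The study lists w1118 over y1, sc*, v1 and sev21 for both genotypes. These markers are X-linked and males have a single X, so which of them these flies carried is not given. Flies of both genotypes were reared at 18 °C until the transgenes were switched on, and recovered for 30 minutes at 29 °C before freezing. The driver works in the stem cells of the gut (ISCs) and in the corpus allatum (CA), and is blocked in enteroblasts. The hairpin was thus not aimed at most cells of the head, though the study says esg-Gal4 can be active in a few brain neurons. The comparison asks how head RNA differed when the hairpin against pum, rather than mCherry, was expressed in the driver's cells. The level of pum in those cells is not given.

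The gene counts summed to between 33258537 and 39377789 per library, and values below are CPM, counts relative to the library's gene counts after TMM scaling. A gene was called where edgeR's adjusted p was under 0.05 and the log2 fold change was 1 or more in size. Of 10696 genes tested, 11 were called, which is 0.103%. Photoreceptor markers were abundant, with ninaE, the main rhodopsin, at 51097 to 66600 CPM in pum kd heads and 55219 to 60944 CPM in control heads, and the neuronal marker nSyb was at 1448 to 1809 CPM in pum kd heads and 1586 to 2048 CPM in control heads, so the defining genes of these head cell types were present. The targeted gene, pum, had 176, 192 and 228 CPM in pum kd replicates 1, 2 and 3, against 346, 168 and 270 CPM in control replicates 1, 2 and 3, and the groups overlapped (log2 fold change -0.40, SE 0.25, edgeR adjusted p = 0.993). Its log2 fold change was -0.14 without control replicate 1, -0.60 without control replicate 2 and -0.14 with a correction for gene length. Samples of whole heads do not tell fewer cells of a type from less RNA per cell.

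All 10 glycolysis enzymes passed the filter on low counts, and 0 of 10 were called. None reached an unadjusted p under 0.05, against 4.95% of all genes tested. Of the 10, 4 had a log2 fold change above 0 and 6 below 0, with a median of -0.01, where the median over all genes tested was -0.03 and 45.6% of genes were above 0. The fitted changes ran from -0.39 for Ldh to 0.15 for Pgi. Groups did not overlap for 1 of 10 (Pfk), against 10.3% of all genes tested.

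**Figure D1:**
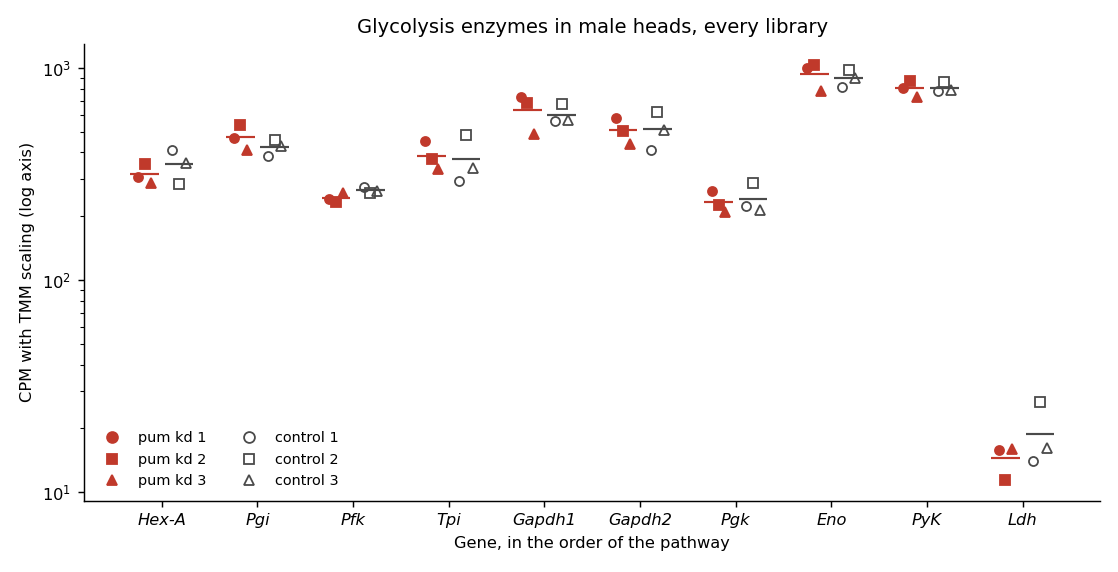
CPM (log axis) of the 10 glycolysis enzymes, in pathway order, in the 3 pum kd libraries (filled, left) and the 3 control libraries (open, right), with the mean of each group as a line. The groups overlap for every gene but Pfk, and Ldh sits far below the others, between 11.4 and 26.6 CPM.

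The first steps of the pathway showed small differences of both signs. Hex-A, the hexokinase that phosphorylates glucose, lies on the X chromosome (9585675 to 9589813, plus strand, dm6). It had 307, 352 and 287 CPM in pum kd replicates 1, 2 and 3, against 410, 285 and 358 CPM in control replicates 1, 2 and 3. The control libraries included both the highest and the lowest value, so that the groups overlapped fully (log2 fold change -0.15, SE 0.19). Pgi, which converts glucose-6-phosphate to fructose-6-phosphate, lies on chromosome 2R (8910900 to 8914069, minus strand). Its levels were 466, 538 and 412 CPM in pum kd replicates 1, 2 and 3, against 386, 460 and 428 CPM in control replicates 1, 2 and 3. The highest value of the 6 was in pum kd replicate 2, and the lowest pum kd value lay inside the control range (log2 fold change 0.15, SE 0.18).

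Pfk encodes phosphofructokinase, the committing and most regulated step of the pathway, and lies on chromosome 2R (10109740 to 10117457, plus strand). It had 241, 233 and 258 CPM in pum kd replicates 1, 2 and 3, against 274, 259 and 263 CPM in control replicates 1, 2 and 3. All pum kd values were below all control values, but the nearest pair, pum kd replicate 3 and control replicate 2, differed by less than 1 CPM. Pfk was also the most even of the enzymes, with a coefficient of variation of 5.35% in pum kd heads and 2.95% in control heads. The fitted difference was small (log2 fold change -0.12, SE 0.16, edgeR adjusted p = 0.993).

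Tpi, which interconverts the triose phosphates, lies on chromosome 3R (30132981 to 30134599, minus strand). Its levels were 451, 374 and 336 CPM in pum kd replicates 1, 2 and 3, against 294, 485 and 339 CPM in control replicates 1, 2 and 3. Control replicates 1 and 2 held the lowest and the highest value and differed by 1.65-fold, the widest range of the 9 enzymes other than Ldh. The fitted change was 0.05 on the log2 scale (SE 0.22).

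The 2 genes for glyceraldehyde-3-phosphate dehydrogenase, the step that yields NADH, did not differ between genotypes beyond the spread. Gapdh1, on chromosome 2R (7791901 to 7793380, minus strand), had 730, 686 and 490 CPM in pum kd replicates 1, 2 and 3, against 563, 678 and 569 CPM in control replicates 1, 2 and 3. The highest and the lowest of the 6 values were both from pum kd libraries (log2 fold change 0.07, SE 0.20). Gapdh2, on the X chromosome (15868145 to 15869661, plus strand), had 584, 505 and 440 CPM in pum kd replicates 1, 2 and 3, against 409, 620 and 511 CPM in control replicates 1, 2 and 3. Here both extremes were from control libraries (log2 fold change -0.01, SE 0.20).

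The 2 Gapdh genes are close paralogs, and how reads that fit both were counted is not given in the sources used here, so the balance between them is less certain than their sum. With their counts added, the pair had a log2 fold change of 0.04 (SE 0.19, 95% interval -0.39 to 0.46). Gapdh2 took 44.4%, 42.4% and 47.3% of the pair's counts in pum kd replicates 1, 2 and 3, against 42.0%, 47.8% and 47.3% in control replicates 1, 2 and 3. The means were 44.7% ± 2.46 in pum kd heads and 45.7% ± 3.18 in control heads (SD, n = 3 each), with p = 0.70 in a two-sided exact permutation test, which cannot go below 0.10 with 3 libraries against 3. The sign of this difference changed when a single library was left out, and Gapdh1 stayed the more abundant of the pair in all 6 libraries.

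The later steps of the pathway moved as little. Pgk, phosphoglycerate kinase, on chromosome 2L (2746880 to 2753068, minus strand), had 263, 227 and 209 CPM in pum kd replicates 1, 2 and 3, against 223, 288 and 215 CPM in control replicates 1, 2 and 3. Pgk was highest in control replicate 2 and lowest in pum kd replicate 3 (log2 fold change -0.05, SE 0.19). Eno, enolase, on chromosome 2L (1724768 to 1729636, minus strand), had 1003, 1036 and 781 CPM in pum kd replicates 1, 2 and 3, against 815, 978 and 898 CPM in control replicates 1, 2 and 3. The pum kd values spanned the whole control range (log2 fold change 0.07, SE 0.18). Of the exon bases, 9.74% in Eno and 3.08% in Pgk are shared with a gene on the opposite strand, and the other 8 enzymes share none with another gene.

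PyK, pyruvate kinase, makes pyruvate and ATP in the last step, and lies on chromosome 3R (22367536 to 22372746, plus strand). It had 805, 869 and 729 CPM in pum kd replicates 1, 2 and 3, against 783, 860 and 784 CPM in control replicates 1, 2 and 3. As with Eno, the pum kd libraries held both extremes, and the group means were 801 ± 69.9 CPM in pum kd heads and 809 ± 44.0 CPM in control heads (SD, n = 3 each). The log2 fold change was -0.01 (SE 0.16, 95% interval -0.37 to 0.35).

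Ldh, lactate dehydrogenase, on chromosome 3L (6259105 to 6262694, minus strand), was the scarcest and most variable enzyme. It had 15.9, 11.4 and 16.0 CPM in pum kd replicates 1, 2 and 3, from 530, 428 and 576 counts, against 14.0, 26.6 and 16.1 CPM in control replicates 1, 2 and 3, from 464, 932 and 549 counts. Control replicate 2 stood above the other 5 libraries, and control replicate 1 lay inside the pum kd range. The means were 14.4 ± 2.62 CPM in pum kd heads and 18.9 ± 6.73 CPM in control heads (SD, n = 3 each). The log2 fold change was -0.39 (SE 0.27, 95% interval -0.99 to 0.21, edgeR adjusted p = 0.993). Without control replicate 2 the log2 fold change was -0.04, and without pum kd replicate 2 it was -0.21. The size of the difference thus depended on both libraries, and most on control replicate 2.

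The RNA for lactate dehydrogenase was set against that for the last glycolytic step by the ratio of Ldh to PyK counts. This is a ratio of RNA levels, and lactate itself was not measured. The log2 ratio was -5.66, -6.25 and -5.51 in pum kd replicates 1, 2 and 3, against -5.80, -5.02 and -5.60 in control replicates 1, 2 and 3. The groups overlapped, and the mean difference of -0.33 had p = 0.50 in a two-sided exact permutation test. Per length of exon, there were 2.11 ± 0.53 Ldh fragments for every 100 of PyK in pum kd heads and 2.67 ± 0.79 in control heads (SD, n = 3 each).

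**Figure D2:**
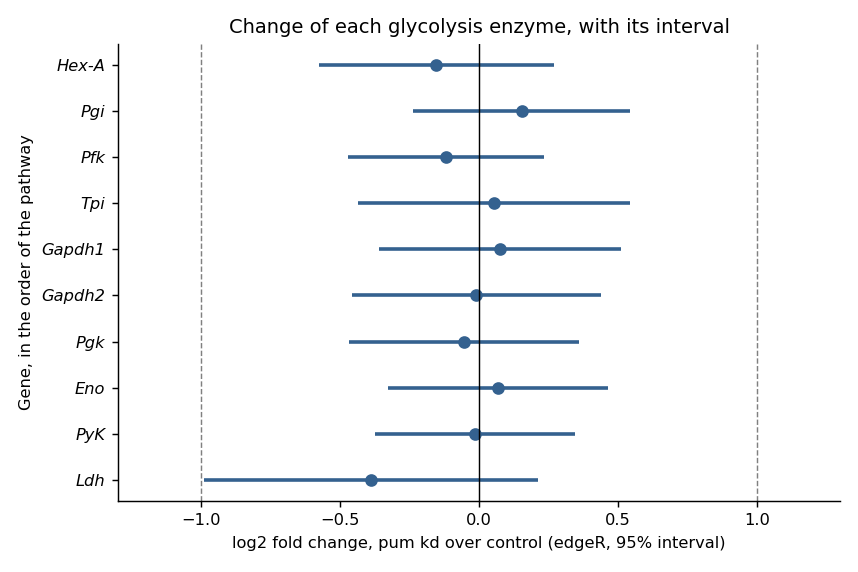
Log2 fold change, pum kd over control, of each glycolysis enzyme (point) with its 95% interval from edgeR (line), with dashed lines at the fold used for a call. All intervals include 0, and the lower bound for Ldh, -0.99, is the farthest from it.

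For the 9 enzymes other than Ldh the 95% intervals, not adjusted for the number of genes, lay between a log2 fold change of -0.58 and 0.54, and the upper end corresponds to 1.46-fold. For Ldh the interval ran from 0.503-fold to 1.16-fold. Counting error was a small part of this, since the 9 enzymes had between 7303 and 38849 counts in each library. The intervals mostly carry the variation between libraries as edgeR estimates it, which draws on all genes tested. For an even gene such as Pfk the interval is therefore not a measure of that gene's own spread alone. The highest library exceeded the lowest by 1.18-fold for Pfk to 1.65-fold for Tpi, and by 2.33-fold for Ldh.

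Levels were compared between the genes per kilobase of merged exon. In CPM per kilobase, Gapdh1 stood highest, at 429 ± 86.3 in pum kd heads and 408 ± 43.8 in control heads (SD, n = 3 each). PyK (357 in pum kd heads, 361 in control heads) and Gapdh2 (353 in pum kd heads, 356 in control heads) came next, and these 3 overlapped from one to the next over the 6 libraries. Eno (253 in pum kd heads, 241 in control heads), Tpi (248 in pum kd heads, 239 in control heads) and Pgi (192 in pum kd heads, 173 in control heads) followed, and each overlapped the next over the 6 libraries. The highest Eno library, at 279, was below the lowest Gapdh2 library, at 283, whereas Tpi reached 312 in control replicate 2, above it.

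Below them stood Pgk (110 CPM per kilobase in pum kd heads, 115 in control heads) and Hex-A (76.2 in pum kd heads, 84.8 in control heads), whose ranges met. Pfk (55.8 in pum kd heads, 60.6 in control heads) and Ldh (7.44 in pum kd heads, 9.74 in control heads) were each separated from the gene above. Pfk, followed by Hex-A, had the lowest group means of the 9 enzymes other than Ldh in both genotypes, although Hex-A is not the only hexokinase gene, and the 10 group means stood in the same order in pum kd and control heads. Merged exon length counts the exons of all isoforms, so it understates the level of genes with long alternative exons.

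**Figure D3:**
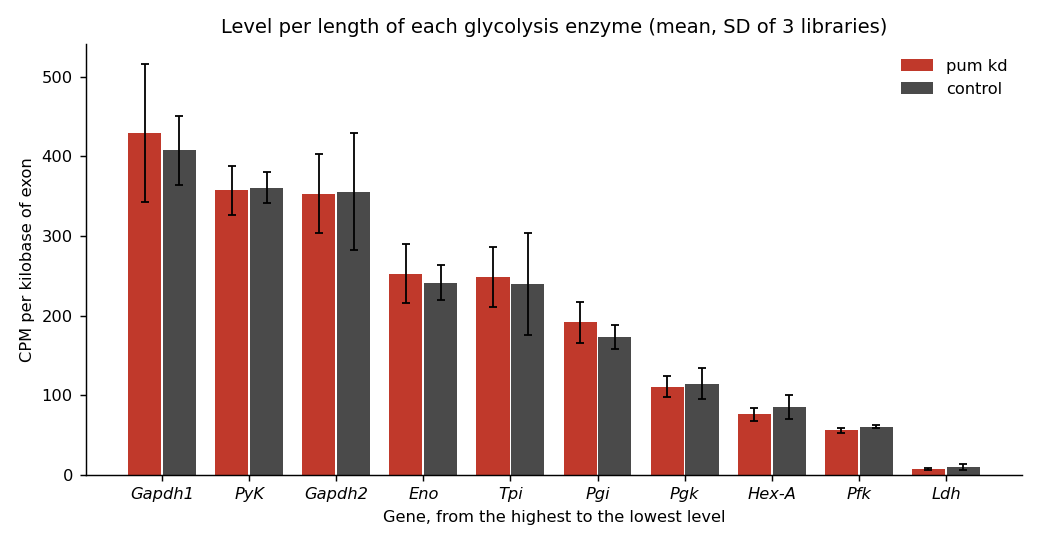
CPM per kilobase of merged exon of the glycolysis enzymes (mean and SD of 3 libraries), pum kd left of control, from the highest to the lowest gene. Gapdh1 stood at 429 in pum kd heads and 408 in control heads, and Ldh at 7.44 in pum kd heads and 9.74 in control heads.

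The 10 enzymes are not the whole pathway, since the aldolase Ald1, described below, is not among them. Together they took 0.488%, 0.460% and 0.413% of the gene counts in pum kd replicates 1, 2 and 3. In control replicates 1, 2 and 3 the shares were 0.403%, 0.518% and 0.435%. In scaled CPM the sums averaged 4552 ± 514 in pum kd heads and 4498 ± 396 in control heads (SD, n = 3 each). The pum kd mean was 101% of the control mean, and both the highest and the lowest share of gene counts were from control libraries.

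Several enzymes were high or low in the same libraries. Of the 10, 4 were highest in control replicate 2 (Tpi, Gapdh2, Pgk and Ldh), 2 were highest in control replicate 1 (Hex-A and Pfk), and 4 were lowest in pum kd replicate 3. The mean deviation of the 10 enzymes from each gene's own log2 mean was 0.09, 0.01 and -0.15 in pum kd replicates 1, 2 and 3, against -0.10, 0.19 and -0.03 in control replicates 1, 2 and 3.

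For the 3 enzymes with the shortest exon length (Tpi, Gapdh1 and Gapdh2, 1443 to 1558 bases), the mean deviation was 0.24, 0.05 and -0.23 in pum kd replicates 1, 2 and 3, against -0.26, 0.27 and -0.08 in control replicates 1, 2 and 3. The 3 longest (Hex-A, Pfk and Eno, 3718 to 4377 bases) gave -0.02, 0.05 and -0.13 in pum kd replicates 1, 2 and 3, against 0.09, -0.03 and 0.05 in control replicates 1, 2 and 3. Over all genes the libraries also differed by length. The 1958 tested genes of up to 1000 bases had median deviations of 0.35, 0.02 and -0.09 in pum kd replicates 1, 2 and 3. In control replicates 1, 2 and 3 they were -0.31, 0.29 and -0.04. The 1726 genes over 4500 bases deviated the other way, with -0.28, -0.06 and 0.12 in pum kd replicates 1, 2 and 3, against 0.37, -0.30 and 0.16 in control replicates 1, 2 and 3. Short enzymes were thus high, and long genes low, in pum kd replicate 1 and control replicate 2, and the part of length in the single values above was not tested. The long enzymes did not follow the long genes closely. In pum kd replicate 1 they were at -0.02, where long genes were at -0.28. In pum kd replicate 3 they were at -0.13, where long genes were at 0.12. With a correction for gene length in each library, 0 of 10 enzymes were called, and their median log2 fold change was -0.04.

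**Figure D4:**
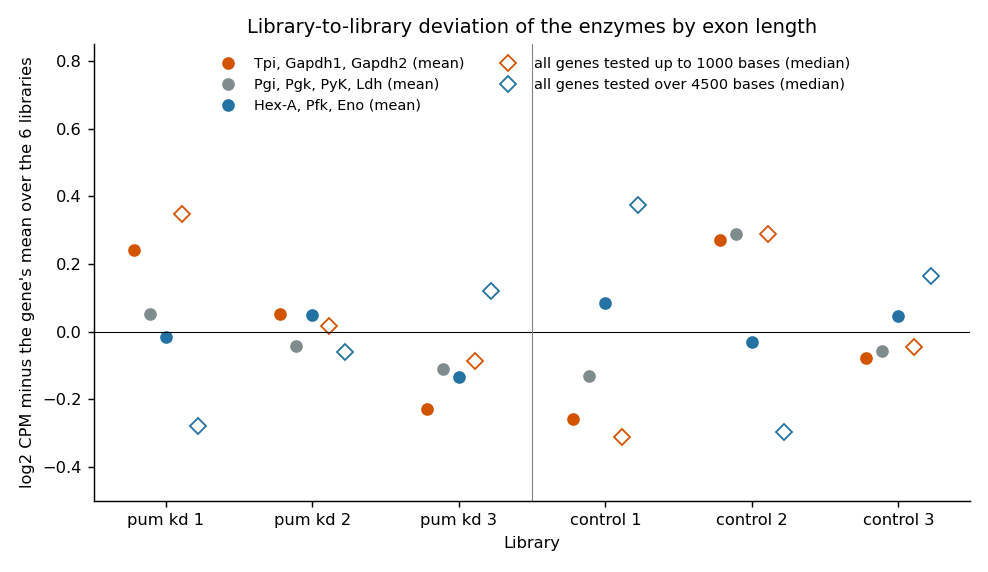
Log2 CPM minus each gene's mean over the 6 libraries, averaged over the short, middle and long glycolysis enzymes (filled circles), with the median of all tested genes up to 1000 bases and over 4500 bases (open diamonds). Pum kd replicate 1 and control replicate 2 are high for the short enzymes, at 0.24 and 0.27, and for short genes, at 0.35 and 0.29.

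The batch correction of the authors' table divides the libraries into control replicates 1 and 2 with pum kd replicate 1, and control replicate 3 with pum kd replicates 2 and 3. Within the first division the 10 enzymes differed, pum kd minus control, by -0.28 to 0.25 in mean log2 CPM, and within the second by -0.26 to 0.14. The sign was the same in both for 8 of 10, all but Gapdh2 and PyK. Hex-A (-0.16 and -0.17), Pgi (0.14 and 0.14), Pfk (-0.14 and -0.10) and Ldh (-0.28 and -0.26) gave close values in the first and second division. Tpi (0.25 and 0.06), Gapdh1 (0.24 and 0.03), Eno (0.17 and 0.0035) and Gapdh2 (0.21 and -0.12) did not. The close values for Ldh rested on a different library in each division. Its largest deviation from its log2 mean was 0.72 in control replicate 2 in the first, and -0.49 in pum kd replicate 2 in the second. For Hex-A the first value averaged control replicates 1 and 2, at 0.31 and -0.21. Pgk was above 0 in both (0.06 and 0.02), unlike its fitted value over all libraries, and PyK lay near 0 (-0.03 and 0.02). Each division has 1 library of 1 genotype, so these are values with no test.

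The genes whose log2 deviations lay closest to the mean of the enzymes over the 6 libraries were CG7430, Smyd5, Qsox1, beta-PheRS and Cth, with a root mean square difference of 0.024 to 0.036 log2 units. CG7430, the dihydrolipoyl dehydrogenase that serves the pyruvate dehydrogenase complex, was nearest. It had 280, 264 and 231 CPM in pum kd replicates 1, 2 and 3, against 242, 309 and 259 CPM in control replicates 1, 2 and 3. It was highest in control replicate 2 and lowest in pum kd replicate 3, which follows from its being picked by this pattern.

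Beyond the 10 enzymes, 58 genes of the same and neighbouring pathways were listed, of which 43 passed the filter on low counts. None of the 43 was called, at an unadjusted p under 0.05 there was 1 (4.95% of all genes), and 25 had a log2 fold change above 0, with a median of 0.10. Groups did not overlap for 4 of the 43, against 10.3% of all genes tested in either direction. All 4 were higher in pum kd, where 5.36% of all genes tested were so. The others of the pathway itself were 17 genes, of which 7 were tested and 6 of those had a log2 fold change above 0. Ald1, the aldolase that cleaves fructose-1,6-bisphosphate, was the most abundant, at 1367, 1179 and 1347 CPM in pum kd replicates 1, 2 and 3, against 1205, 1213 and 1204 CPM in control replicates 1, 2 and 3 (log2 fold change 0.10). Pfrx, the bifunctional enzyme that sets fructose-2,6-bisphosphate, the activator of phosphofructokinase, had 374, 334 and 356 CPM in pum kd replicates 1, 2 and 3, against 311, 309 and 306 CPM in control replicates 1, 2 and 3. All 3 pum kd values were above all control values, while the fit's interval included 0 (log2 fold change 0.20, 95% interval -0.15 to 0.55, edgeR adjusted p = 0.993).

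At the entry of pyruvate into mitochondria, 9 of 10 listed genes were tested, and 5 were above 0 and 4 below. Pdk, the kinase that switches off pyruvate dehydrogenase, had 298, 230 and 262 CPM in pum kd replicates 1, 2 and 3, against 218, 212 and 194 CPM in control replicates 1, 2 and 3. The groups did not overlap (log2 fold change 0.34, 95% interval -0.04 to 0.72, edgeR adjusted p = 0.993). The subunits of the complex it acts on, named after their values were seen, had log2 fold changes of -0.04 for Pdha, -0.02 for Pdhb and -0.14 for muc, with groups that overlapped. Pdk had the lowest adjusted p of the list genes under the authors' own kind of processing, ComBat-seq followed by DESeq2, at 5.6e-04 with a log2 fold change of 0.43, still under the fold used for a call.

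Among the lactate and other monocarboxylate carriers, 2 of the 5 tested genes were above 0. Mct1, a monocarboxylate transporter, had 19.7, 22.9 and 21.1 CPM in pum kd replicates 1, 2 and 3, against 16.1, 19.4 and 13.5 CPM in control replicates 1, 2 and 3 (log2 fold change 0.38, 95% interval -0.07 to 0.83, edgeR adjusted p = 0.993). The groups were apart only by the small gap between pum kd replicate 1 and control replicate 2. Bsg, the fly basigin, a membrane partner of such carriers in mammals, was the most abundant, at 272 to 381 CPM in pum kd heads and 269 to 472 CPM in control heads.

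In the pentose phosphate pathway, which branches off at glucose-6-phosphate and yields NADPH, all 7 genes were tested and 4 were above 0. Pgd, 6-phosphogluconate dehydrogenase, had 81.1, 73.8 and 67.0 CPM in pum kd replicates 1, 2 and 3, against 51.0, 65.2 and 59.6 CPM in control replicates 1, 2 and 3. The groups did not overlap (log2 fold change 0.34, 95% interval -0.03 to 0.70, edgeR adjusted p = 0.993). CG8036, a transketolase and the most abundant gene of the branch, overlapped between groups, at 303 to 391 CPM in pum kd heads and 268 to 342 CPM in control heads.

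The gluconeogenesis and glycerol-3-phosphate list had 7 of 10 genes tested, 5 of them above 0. PCB, pyruvate carboxylase, was its most abundant gene, at 446 to 500 CPM in pum kd heads and 398 to 499 CPM in control heads. Pepck1, listed at 0 counts in all 6 libraries, and the carrier chk, also at 0, both named for that reason, have all their exon bases inside another gene on the same strand, so that reads there cannot be assigned and no level is given. Of the 8 regulators 3 were above 0 and 5 below, and sima, the fly HIF-1 alpha, was the most abundant, at 136 to 177 CPM in pum kd heads and 127 to 238 CPM in control heads. The single gene under an unadjusted p of 0.05 was sug, a zinc-finger factor of the sugar response, named here after its values were seen, with 54.6, 34.7 and 30.1 CPM in pum kd replicates 1, 2 and 3, against 17.3, 32.7 and 21.9 CPM in control replicates 1, 2 and 3. Its groups overlapped (log2 fold change 0.73, edgeR unadjusted p = 0.026, adjusted p = 0.834).

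**Figure D5:**
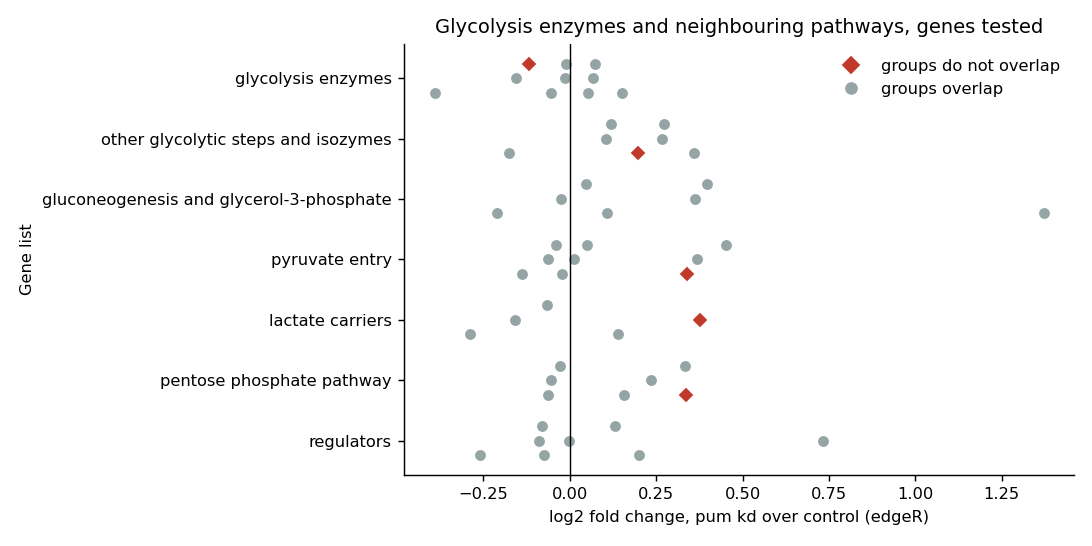
Log2 fold change, pum kd over control, of the tested genes of 7 lists, each point a gene, with genes whose groups do not overlap as diamonds and vertical offsets for legibility only. Pfk, at -0.12, is the only diamond below 0, and Pfrx, Pdk, Mct1 and Pgd, at 0.20 to 0.38, lie above it.

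Cell type markers were read beside these values. The summed level of 5 glial markers was 670 to 746 CPM in pum kd heads and 591 to 694 CPM in control heads, and that of 4 neuronal markers 2683 to 3641 CPM in pum kd heads and 2758 to 4432 CPM in control heads. Among the glial markers, alrm, an astrocyte gene, had 71.2, 62.9 and 57.3 CPM in pum kd replicates 1, 2 and 3, against 32.4, 32.4 and 34.0 CPM in control replicates 1, 2 and 3 (log2 fold change 0.95, SE 0.16, edgeR adjusted p = 0.070), so that all pum kd libraries were higher and the gene missed the call. The glial pump nrv2 also had groups that did not overlap, at 213 to 259 CPM in pum kd heads and 194 to 211 CPM in control heads, whereas Eaat1, the most abundant glial marker, overlapped at 265 to 292 CPM in pum kd heads and 248 to 320 CPM in control heads.

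Muscle markers summed to 6405 to 6843 CPM in pum kd heads and 6745 to 8392 CPM in control heads, and 10 of 11 had a log2 fold change below 0. Act57B (1193 to 1325 CPM in pum kd heads, 1326 to 1487 CPM in control heads) and Act88F (2.21 to 3.81 CPM in pum kd heads, 4.96 to 6.76 CPM in control heads) were lower without overlap, fln, at under 1 CPM throughout, was higher without overlap, and Mhc, the most abundant, overlapped. The head fat body markers summed to 3412 to 4160 CPM in pum kd heads and 3404 to 4280 CPM in control heads, with apolpp the most abundant, at 1773 to 2476 CPM in pum kd heads and 1558 to 2321 CPM in control heads. Testis markers were at or near 0, with a sum of 4.46 CPM in pum kd replicate 2, mostly Mst98Ca, and at most 0.22 CPM in the other 5 libraries. Gut markers summed to 6.36 to 9.28 CPM in pum kd heads and 4.85 to 8.70 CPM in control heads, nearly all Try29F. The part of these marker differences in the values of the enzymes was not tested.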

How the data were processed

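Poly-A RNA of 6 head libraries was analysed, 3 pum kd and 3 control. According to the labels and the methods of the study, the authors checked reads with FastQC 0.12.1, trimmed them with Trimmomatic 0.39, and used STAR 2.7.11b for alignment to dm6 and for counting. The annotation and the strand setting of the counting are not given in the sources used here. One deposited table holds raw counts of reads on each gene, not normalized. A second deposited table holds a normalized signal (ComBat-seq corrected counts over DESeq2 size factors) and the authors' own comparison (log2 fold changes, a score and p-values), which was not used. That correction was traced to 1 division of the libraries, which gave back 100% of the normalized values. Rows that name no gene held 11.5% to 14.2% of a library's counts and were left out. Counts of replicates differed beyond sampling noise (chi-square per degree of freedom at least 44.0), so each was taken as its own library.

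The test was the quasi-likelihood test of edgeR 4.0.16 (R 4.3.3) on genes kept by filterByExpr, with TMM factors and p-values adjusted by Benjamini-Hochberg over 10696 genes. The code was tested on simulated data, where 9 of 67 genes given a 1.5-fold change passed the adjusted p. For a 2-fold change 38 of 67 passed, and for a 4-fold change 66 of 66. Of the unchanged genes, 8 passed. The 3 pum kd and 3 control libraries are separate pools of heads. Flies of each genotype were put together in tubes before freezing, and the heads of each library were collected afterwards. Whether the libraries of a genotype came from separate tubes is not given. A difference between genotypes therefore cannot be told apart from a difference between tubes. Log2 CPM used a prior count of 2. Positions and exon lengths came from the Ensembl annotation of dm6, which matched 17710 of 17807 genes. Alternatives used DESeq2 1.42.0, limma 3.58.1 (pseudocount 1) and sva 3.50.0. The 10 enzymes, the pathway and marker lists and the tests were chosen with earlier results of these data known. Named are the enzymes, pum, the 5 genes nearest in pattern and, of each list, genes that were called, genes whose groups did not overlap and the most abundant gene. Where another gene is named, the text says so.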

Additional observations from a re-analysis of the deposited data

How the results depend on the processing

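In all 15 planned and 3 added fits, 0 of 10 enzymes and 0 genes of the other pathway lists were called, and the lowest adjusted p of an enzyme was 0.52 (Tpi, without control replicate 2). The count of genes called, 11, became 64 with DESeq2, 73 with no filter, 21 with a gene length correction, 40 with limma on the authors' normalized values and, in fits added after the data were seen, 29 with ComBat-seq then edgeR and 217 with ComBat-seq then DESeq2. It ran from 1 to 30 with each library left out. The cause was not tested. The median log2 fold change of the enzymes ran from -0.064 to 0.14 with each library left out, the highest without control replicate 2. The 10 enzymes gave 180 values under the alternatives, 152 with the direction given above and 28 reversed. Hex-A, Pgi, Pfk, Gapdh1, Eno and Ldh had 1 direction in all of them, but not 1 size. With the length correction Gapdh1 was 0.00019, Pfk -0.042 and Hex-A -0.062. With a library left out, Hex-A was between -0.25 and -0.026 (the second without control replicate 1), Pgi from 0.078 (without pum kd replicate 2) to 0.24, Pfk from -0.16 to -0.055 (without pum kd replicate 2), Gapdh1 from 0.0070 (without pum kd replicate 1) to 0.23, and Eno from 0.0051 (without control replicate 1) to 0.19.

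On the log2 scale, reversed values in the fits on all 6 libraries were these. Tpi was -0.0035 with the length correction. Gapdh2 was 0.0064 with DESeq2 and with RLE size factors, 0.038 with no filter, 0.026 and 0.0035 after ComBat-seq (edgeR and DESeq2) and 0.035 with the division as a term. Pgk was 0.045 with limma, 0.069 and 0.046 after ComBat-seq (edgeR and DESeq2) and 0.032 with the division as a term. PyK was 0.0023 with DESeq2 and with RLE size factors, 0.036 with no filter, 0.018 with limma and 0.050 and 0.026 after ComBat-seq (edgeR and DESeq2). With the length correction Bsg was 0.073 and ninaE -0.026. After ComBat-seq then edgeR, CG7430 was 0.0099, Smyd5 0.0044, beta-PheRS 0.022 and Cth 0.043. Smyd5 (0.00079) and Cth (0.019) also reversed with no filter, beta-PheRS (0.0018) with the division as a term, and Cth with limma (0.0077) and ComBat-seq then DESeq2 (0.019). With a library left out, Tpi ran from -0.091 to 0.32, Gapdh2 from -0.15 to 0.18, Pgk from -0.13 to 0.12 and PyK from -0.046 to 0.062. CG7430 ran from -0.14 to 0.074, Bsg from -0.31 to 0.052, Eaat1 from -0.13 to 0.014, nSyb from -0.18 to 0.017, ninaE from -0.0012 to 0.15, Smyd5 from -0.10 to 0.049, Qsox1 from -0.12 to 0.032, beta-PheRS from -0.087 to 0.054 and Cth from -0.089 to 0.086.

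The summed level in pum kd heads was 97.7% to 108% of control with a library left out. The Gapdh2 share difference, -0.99 points, ran from -2.83 to 0.16, and the Ldh to PyK difference, -0.33, ran from -0.50 to -0.10. With no filter alrm was called, at 1.00 (adjusted p = 0.0046), and its adjusted p ran from 4.8e-09 to 0.51 over the alternatives. By adjusted p alone, fbp (0.017), Mpc1 (0.042) and Pdk passed only after ComBat-seq then DESeq2. Libraries with the same replicate number did not deviate together (r = -0.09, -0.02 and 0.01 for numbers 1, 2 and 3), and with the replicate block 14 genes were called and the median log2 fold change of the enzymes was -0.0085. A planned edgeR fit on whole counts derived from the authors' normalized table was not run. For the 10 enzymes, Ldh included, the variation between libraries, as edgeR estimates it, limits the precision more than counting depth.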

Other observations

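A few values outside the comparisons above concern enzymes and isozymes around the pathway, all chosen after their values were seen. Hex-C, the second hexokinase measured, had 82.9, 104 and 64.4 CPM in pum kd replicates 1, 2 and 3, against 72.2, 63.0 and 61.2 CPM in control replicates 1, 2 and 3 (log2 fold change 0.36, edgeR adjusted p = 0.993), and its log2 fold change was 0.20 without pum kd replicate 2. Per length of exon, Hex-A made up 57.2%, 54.9% and 61.7% of the Hex-A and Hex-C level in pum kd replicates 1, 2 and 3, against 67.2%, 62.0% and 67.8% in control replicates 1, 2 and 3. The groups did not overlap, by a gap of under 1 percentage point, and since Hex-A is a long gene and Hex-C a short one, the share also moves with the length axis of the libraries. The part of length in it was not tested.

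Mpc1, a subunit of the mitochondrial pyruvate carrier, had 52.3, 60.7 and 48.0 CPM in pum kd replicates 1, 2 and 3, against 38.7, 49.4 and 29.5 CPM in control replicates 1, 2 and 3 (log2 fold change 0.45, edgeR adjusted p = 0.993). Without control replicate 2 it was 0.69 and without control replicate 3 it was 0.29. The gluconeogenic enzyme fbp had 75.9, 65.0 and 68.7 CPM in pum kd replicates 1, 2 and 3, against 47.6, 70.8 and 40.8 CPM in control replicates 1, 2 and 3 (log2 fold change 0.40, edgeR adjusted p = 0.993). For fbp the log2 fold change was 0.69 without control replicate 2 and 0.24 without control replicate 3. In both genes control replicate 2 lay inside the pum kd range and the other control libraries below it.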
